A study of Homo sapiens with 11 samples.

Results

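The genes described here are 33 targets of the transcription factor p53, named by symbol. All 33 were found among the 26485 gene symbols of both count tables. They were divided by role into 9 genes of cell cycle arrest and of feedback on p53, 5 death receptor genes, 8 other genes of cell death and survival, 4 genes of DNA repair and nucleotide supply, and 7 genes of metabolism and secretion. RNA was sequenced from clone 1 of Caki-1-SR, a sunitinib-resistant subline of the human clear cell renal carcinoma line Caki-1, so every library comes from 1 clone. ODCREMP (below, ODC) mixes 4 drugs: 5 µM parthenolide (a plant lactone), 2 µM Rapta-C (which contains ruthenium), 1 µM erlotinib (which blocks the EGF receptor) and 1 µM metformin (used against diabetes). There were 3 ODC and 3 control (CTRL) libraries after 24 h, and 3 ODC and 2 CTRL libraries after 2 h. The control is called untreated in the results of the study and sham-treated elsewhere in it, and all groups share the 1 µM sunitinib of the culture medium.

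p53 is held low in unstressed cells by MDM2, a ubiquitin ligase that marks it for degradation and is itself a p53 target. When DNA damage, oxidative stress or other insults stabilise p53, it binds paired half-sites near its target genes and activates genes that halt the cell cycle, repair DNA, adjust metabolism or promote death.

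After 24 h with ODC, most p53 targets had higher levels than in the control cells, and after 2 h the estimates lay on both sides of 0. Of the 32 targets with enough counts to test, 30 had a higher estimate with ODC at 24 h and 2 a lower one, by less than 0.03 on the log2 scale. An unadjusted p under 0.05 was reached by 15 of the 32, all higher, against 7.2% of all 12689 genes tested that were higher and 5.04% that were lower at that threshold. After Benjamini-Hochberg adjustment over all genes, edgeR's quasi-likelihood test called 2 targets, RRAD and NINJ1, against 0.189% of all genes. The median log2 fold change of the 32 targets was 0.53, and that of all genes was 0.00089. A further condition, that every ODC library lie above every CTRL library, was met by 11 of the 32 targets and by 9.42% of all genes. No target had all ODC libraries below all CTRL libraries, as 8.51% of all genes did. At an unadjusted p under 0.05 with at least a 2-fold change, the looser of the rules the study applies, 5 targets were higher (RRAD, NINJ1, BTG2, SPATA18 and GDF15) against 1.77% of all genes.

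The counts behind these values are deep for most targets. The 24 h libraries held 17785229 to 20882856 counts and the 2 h libraries 25782895 to 31118349. The floor used here, 3 counts in a library, equalled 0.144 to 0.169 CPM (read counts scaled to the library size) at 24 h and 0.0964 to 0.116 at 2 h. The labels do not say whether libraries of a group come from separate cultures, so the p-values measure the spread between these libraries, which may be technical. PAX8, a kidney lineage factor, and the epithelial keratins KRT8 and KRT18 were abundant in all libraries, whereas PAX2 had at most 4 counts. One library stands apart. CTRL replicate 1 at 2 h held 971 counts of COL1A2, 1081 of COL3A1, 73 of DCN and 65 of LUM, fibroblast genes with at most 11 counts in any other library, and 100 of EPCAM against 19 to 27 in the other 2 h libraries. The counts and the main values at 2 h are therefore given with and without it. Without it CTRL replicate 2 is the lone control at 2 h and is assumed to vary like the ODC libraries, and these fits of the gene lists were added after the data were seen. The part of those cells or reads in the 2 h results was not tested.

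Candidate p53 response elements close to the gene start are shown here for some of the targets. They were found by sequence alone, and binding of p53 was not measured. The p53 response element is a pair of 10-base half-sites, each with a short core that starts with C, ends with G and has only A or T between them. The hg38 genome was searched within 2500 bases of each GENCODE canonical start site for such pairs, with at most 1 base between the half-sites and at most 2 mismatches outside the cores. The motif is its own reverse complement, so both strands were covered. A match was found for 14 of the 33 targets (42.4%) and for 856 of 20033 protein-coding genes (4.27%). The targets were chosen as known p53 targets, so the first share is no independent finding. The matches below are given 5′ to 3′ on the strand of the gene, with the core of each half-site in capitals.
CDKN1A (chr6:36676449-36676468, upstream, 2 mismatches): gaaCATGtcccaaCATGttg
BTG2 (chr1:203303642-203303661, upstream, 2 mismatches): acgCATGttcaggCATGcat
GADD45A (chr1:67686775-67686794, intron 3, 1 mismatch): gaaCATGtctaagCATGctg
FAS (chr10:88991309-88991328, intron 1, 2 mismatches): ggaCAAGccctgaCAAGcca
SPATA18 (chr4:52051957-52051976, intron 1, 2 mismatches): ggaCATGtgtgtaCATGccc
CMBL (chr5:10307584-10307603, intron 1, 2 mismatches): acaCAAGcccacaCAAGccc
GDF15 (chr19:18385308-18385327, upstream, 2 mismatches): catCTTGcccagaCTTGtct
PLK2 (chr5:58462274-58462293, upstream, 0 mismatches): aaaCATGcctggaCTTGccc
ZMAT3 (chr3:179070188-179070207, intron 1, 0 mismatches): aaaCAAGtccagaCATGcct
DDB2 (chr11:47214979-47214999, exon 1, 0 mismatches, 1 base between the half-sites): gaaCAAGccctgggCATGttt

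The first 7 of these genes were printed because 6 of them had an unadjusted p under 0.05 at 24 h and FAS is a death receptor, and the last 3 because their elements had no mismatch. The 3 targets with no mismatch, PLK2, ZMAT3 and DDB2, had log2 fold changes at 24 h of 0.15, 0.54 and 0.19, all with an unadjusted p over 0.05. Matches were also found for CCNG1, AEN, TNFRSF10B and RRM2B. Over all 14 targets with a match the median log2 fold change at 24 h was 0.53, with 6 of 14 under an unadjusted p of 0.05, and over the 18 tested targets without one it was 0.51, with 9 of 18. Neither RRAD nor NINJ1, the 2 called targets, had a match in this window, which says only that no such pair lies in it.

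Among the genes of arrest and feedback, the largest differences were in BTG2, CDKN1A and MDM2. BTG2, an antiproliferative factor, measured 14.7, 18.7 and 23.2 CPM in CTRL replicates 1 to 3 and 50.0, 31.7 and 51.2 CPM in ODC replicates 1 to 3, a log2 fold change of 1.23 ± 0.23 (SE, n = 3 per group, adjusted p = 0.0982). CDKN1A, which encodes the CDK inhibitor p21, measured 86.9, 89.4 and 107 CPM in CTRL and 206, 130.5 and 218 CPM in ODC, a log2 fold change of 0.97 ± 0.19 (adjusted p = 0.107). Both genes were higher in all 3 ODC libraries than in any CTRL library, and both were lowest among the ODC libraries in replicate 2. MDM2 (chr12:68808177-68845544) measured 222, 221 and 289 CPM in CTRL and 447, 264 and 578 CPM in ODC, a log2 fold change of 0.81 ± 0.26 (unadjusted p = 0.0140, adjusted p = 0.262). For MDM2 the groups overlapped, since ODC replicate 2 lay below CTRL replicate 3. GADD45A, a stress sensor of growth arrest and repair, measured 36.7, 28.3 and 42.6 CPM in CTRL and 48.2, 39.5 and 81.4 CPM in ODC (log2 fold change 0.65 ± 0.27, unadjusted p = 0.0422, adjusted p = 0.384), and again ODC replicate 2 lay within the CTRL range. The remaining 5 genes of this role did not reach an unadjusted p of 0.05. They were PLK2 and PLK3, polo-like kinases of the stress response, CCNG1, a cyclin that acts on MDM2, PPM1D, a phosphatase that switches p53 off, and SERTAD1, a transcriptional cofactor, with log2 fold changes from -0.02 for CCNG1 to 0.57 for PLK3. Of the 2 partners that restrain p53, MDM2 was thus higher at an unadjusted p under 0.05, and PPM1D, at 37.4, 39.4 and 35.4 CPM in CTRL and 48.1, 36.4 and 51.3 in ODC, was not (unadjusted p = 0.0879).

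The death receptors, which start apoptosis at the cell surface when bound by their ligands, had positive estimates within the spread of the libraries. All 4 tested members had log2 fold changes between 0.40 and 0.53 at 24 h, and edgeR's quasi-likelihood test put 0 of the 4 under an unadjusted p of 0.05. Its likelihood ratio test (unadjusted p = 0.0499) and DESeq2 (unadjusted p = 0.0448) each put 1 there, TNFRSF10B. FAS, the receptor of FAS ligand, measured 63.4, 42.3 and 72.4 CPM in CTRL and 88.5, 49.5 and 118 CPM in ODC (log2 fold change 0.53 ± 0.31, adjusted p = 0.562). TNFRSF10B, the TRAIL receptor DR5, measured 243, 199 and 285 CPM in CTRL and 304, 255 and 399 CPM in ODC (log2 fold change 0.40 ± 0.19, adjusted p = 0.449). In both genes ODC replicates 1 and 3 lay above every CTRL library and ODC replicate 2 did not. TNFRSF10A, the TRAIL receptor DR4, measured 29.0, 16.4 and 29.5 CPM in CTRL and 29.6, 28.1 and 43.7 CPM in ODC (log2 fold change 0.44 ± 0.26, adjusted p = 0.561). TNFRSF10D, a decoy receptor with a truncated death domain, measured 28.5, 21.9 and 33 CPM in CTRL and 36.5, 27.8 and 46.7 CPM in ODC (log2 fold change 0.42 ± 0.22, adjusted p = 0.496). The spread within each group was wide here, with CTRL replicate 2 the lowest CTRL library in all 4 genes. TNFRSF10C, the decoy receptor without a death domain, was at the floor: it had 0, 0 and 0 counts in CTRL and 4, 1 and 0 in ODC at 24 h, and 0 and 2 counts in CTRL and 1, 0 and 2 in ODC at 2 h, so it was not tested and no fold is given. Without ODC replicate 2, FAS had a log2 fold change of 0.80 (unadjusted p = 0.00920, adjusted p = 0.275). With all libraries the death receptor values do not separate from the spread between replicates in these 6 libraries.

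**Figure D1:**
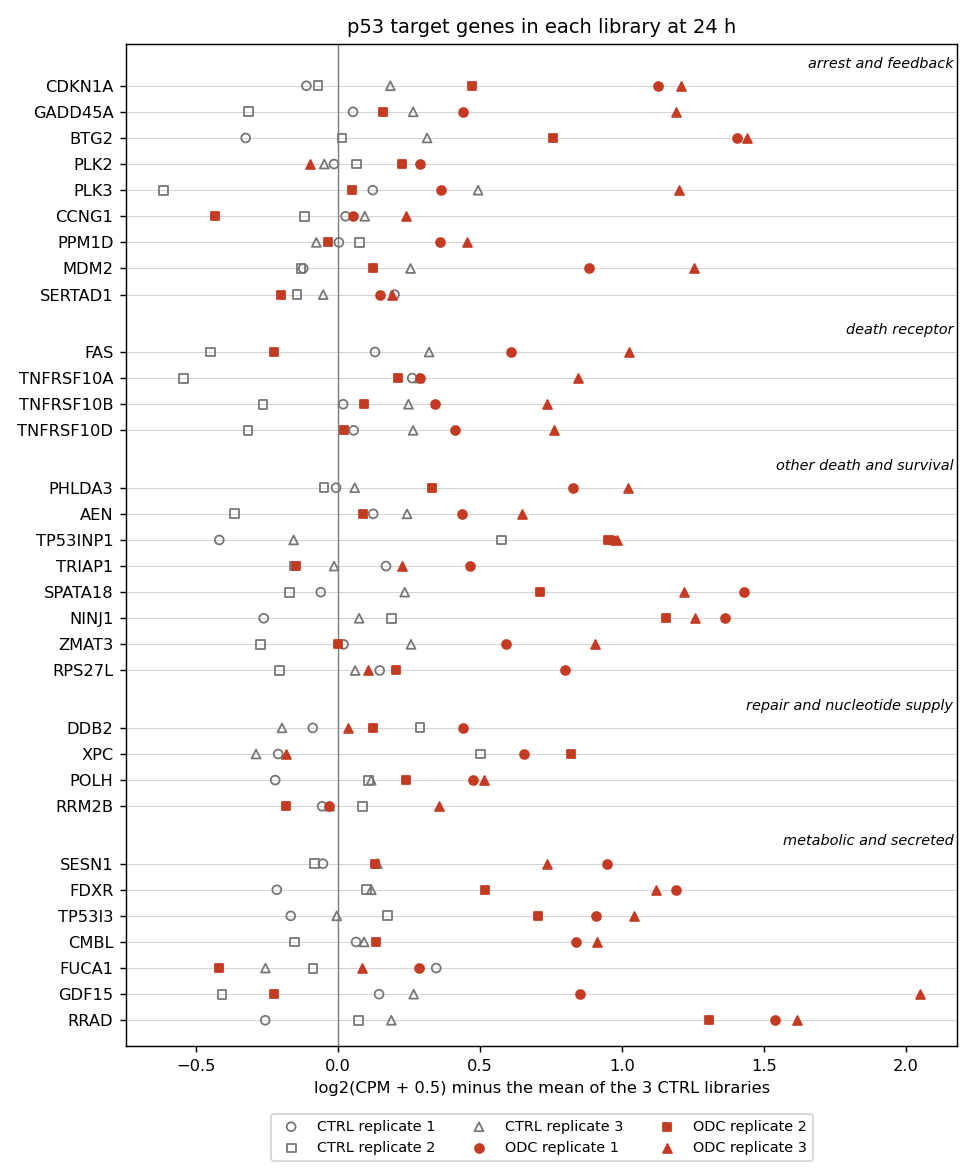
Each row is 1 of the 32 tested p53 target genes, grouped by role, and each point is 1 library at 24 h, plotted as log2(CPM + 0.5) minus the mean of the 3 CTRL libraries (open grey: CTRL, filled red: ODC, with circles, squares and triangles for replicates 1, 2 and 3). The red squares of ODC replicate 2 are the lowest ODC points in 28 of the 32 rows, whereas in RRAD, NINJ1 and TP53INP1 all 3 red points lie close together above the grey ones.

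Among the other genes of death and survival, 4 of 8 were higher with an unadjusted p under 0.05. NINJ1 (chr9:93121496-93134251), a membrane protein that ruptures the plasma membrane of dying cells, rose 2.52-fold. It measured 3.80, 5.38 and 4.92 CPM in CTRL and 12.7, 11 and 11.8 CPM in ODC, a log2 fold change of 1.33 ± 0.18 (edgeR's quasi-likelihood test, adjusted p = 0.0435). The lowest ODC library was above the highest CTRL library by more than the whole range of either group. SPATA18, which acts in the quality control of mitochondria, measured 7.93, 7.31 and 9.85 CPM in CTRL and 23.2, 13.9 and 19.9 CPM in ODC (log2 fold change 1.19 ± 0.22, adjusted p = 0.0974). TP53INP1, a nuclear cofactor of p53 in apoptosis and autophagy, measured 7.16, 14.8 and 8.69 CPM in CTRL and 19.5, 19.3 and 19.7 CPM in ODC (log2 fold change 0.93 ± 0.25, adjusted p = 0.187). PHLDA3, which blocks the survival kinase AKT, measured 55.3, 53.6 and 57.9 CPM in CTRL and 99.0, 70.0 and 113 CPM in ODC (log2 fold change 0.76 ± 0.17, adjusted p = 0.131). These 4 genes were higher in every ODC library than in every CTRL library, and in TP53INP1 the ODC libraries were alike while CTRL replicate 2 stood above the other CTRL libraries. ZMAT3, an RNA-binding regulator of splicing, just missed the threshold (log2 fold change 0.54 ± 0.23, unadjusted p = 0.0502). AEN, an apoptotic nuclease, RPS27L, a ribosomal protein paralog, and TRIAP1, an inhibitor of apoptosis, had log2 fold changes of 0.39, 0.40 and 0.20 with overlapping groups.

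The repair genes had the lowest median log2 fold change of the 5 roles, 0.30, against 0.90 for the genes of metabolism and secretion. POLH, the polymerase that copies past ultraviolet lesions, was the 1 gene of 4 with an unadjusted p under 0.05. It measured 39.9, 50.3 and 50.6 CPM in CTRL and 65.1, 55.2 and 66.8 CPM in ODC, a log2 fold change of 0.41 ± 0.13 (unadjusted p = 0.0128, adjusted p = 0.252), with all ODC libraries above all CTRL libraries. XPC and DDB2, which recognise DNA lesions in nucleotide excision repair, had log2 fold changes of 0.45 ± 0.29 and 0.19 ± 0.16. XPC did not follow the pattern of the other targets among the libraries: it measured 163, 267 and 154 CPM in CTRL and 297, 333 and 166 CPM in ODC, highest in replicate 2 of each group. RRM2B, the p53-induced subunit of ribonucleotide reductase that supplies nucleotides for repair, measured 30.6, 33.9 and 31.2 CPM in CTRL and 31.2, 28.0 and 40.9 CPM in ODC (log2 fold change 0.06 ± 0.15).

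The genes of metabolism and secretion contained the most members under the threshold, 6 of 7. RRAD (chr16:66921685-66925535), a small GTPase that restrains glucose uptake, rose 2.89-fold, the largest change among the 32 targets. It measured 7.59, 9.65 and 10.5 CPM in CTRL and 27.6, 23.4 and 29.2 CPM in ODC, a log2 fold change of 1.53 ± 0.16 (adjusted p = 0.0241). The 2 groups were far apart, and ODC replicate 2 was the lowest of its group here too, although by little. TP53I3, a quinone oxidoreductase linked to reactive oxygen species, measured 20.7, 26.4 and 23.2 CPM in CTRL and 44.2, 38.3 and 48.5 CPM in ODC (log2 fold change 0.90 ± 0.14, adjusted p = 0.0655). FDXR, the mitochondrial reductase that passes electrons to ferredoxins, measured 44.7, 55.8 and 56.5 CPM in CTRL and 119, 74.7 and 114 CPM in ODC (log2 fold change 0.97 ± 0.19, adjusted p = 0.102). CMBL, a cytosolic hydrolase, measured 24.9, 21.4 and 25.4 CPM in CTRL and 43.0, 26.2 and 45.4 CPM in ODC (log2 fold change 0.67 ± 0.21, adjusted p = 0.246). In these 3 genes all ODC libraries were above all CTRL libraries, by a margin that was narrow for CMBL in replicate 2. SESN1, which restrains mTORC1 signalling, measured 13.7, 13.4 and 15.7 CPM in CTRL and 27.8, 15.6 and 23.9 CPM in ODC (log2 fold change 0.66 ± 0.21, adjusted p = 0.262), so that ODC replicate 2 was level with the highest CTRL library. GDF15, a secreted stress cytokine of the TGF-beta family, measured 57.8, 39.2 and 63.0 CPM in CTRL and 94.8, 44.6 and 218 CPM in ODC (log2 fold change 1.16 ± 0.49, unadjusted p = 0.0472, adjusted p = 0.401). The GDF15 estimate rested on ODC replicate 3: without that library the log2 fold change was 0.39 (unadjusted p = 0.258). FUCA1, a lysosomal fucosidase, did not separate the groups (log2 fold change -0.01 ± 0.22).

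**Figure D2:**
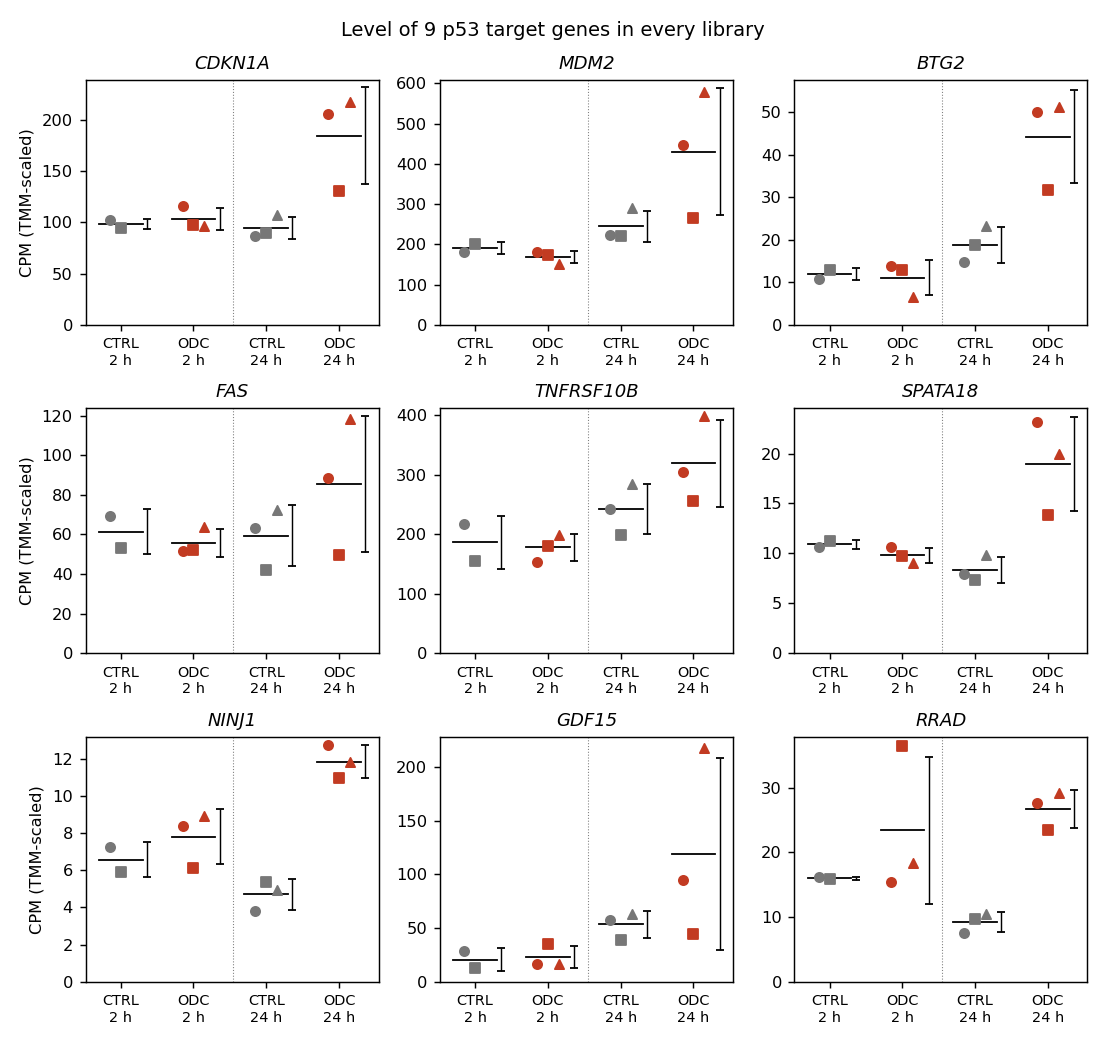
Levels of 9 p53 target genes in CPM scaled by TMM factors, in every library (grey: CTRL, red: ODC, with circles, squares and triangles for replicates 1, 2 and 3), where horizontal lines are group means and bars ± 1 SD. A dotted line divides the 2 h libraries from the 24 h libraries, which come from separate tables whose sample names carry different dates, so levels should be read within each side: at 2 h the groups overlap in all 9 genes, and at 24 h CDKN1A, BTG2, SPATA18, NINJ1 and RRAD separate while MDM2, FAS, TNFRSF10B and GDF15 overlap in replicate 2.

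The size of the difference at 24 h depended on the library. Relative to the CTRL mean, the median log2 value over the 32 targets was 0.60 in ODC replicate 1, 0.13 in ODC replicate 2 and 0.87 in ODC replicate 3, and -0.003, -0.10 and 0.12 in CTRL replicates 1 to 3. ODC replicate 2 was the lowest ODC library in 28 of the 32 targets, whereas over all genes it was the lowest in 35.2%. It lay above every CTRL library in 14 of the 32 targets, against 27 for replicate 1 and 26 for replicate 3. CTRL replicate 2 was likewise the lowest CTRL library in 18 of the 32 targets, against 38.2% of all genes. Between libraries of the ODC group the targets also differed in which were highest: ODC replicate 3 was the highest in 8 of the 9 arrest and feedback genes and in all 4 tested death receptors, while in the other death and survival genes replicates 1 and 3 were each the highest in 4 of 8. CDKN1A, for example, reached 2.18, 1.38 and 2.31 times its CTRL mean in ODC replicates 1 to 3, MDM2 1.83, 1.08 and 2.36 times, and GDF15 1.78, 0.837 and 4.08 times, but RRAD 2.98, 2.53 and 3.15 times. Without ODC replicate 2, all 32 targets were higher, and 23 had an unadjusted p under 0.05 (against 10.1% of all genes in that fit, both directions). After adjustment 6 were called in that fit, against 0.163% of all genes: CDKN1A, BTG2, PHLDA3, SPATA18, FDXR and RRAD, while NINJ1 was not (adjusted p = 0.0665). Without ODC replicate 3 the median log2 fold change fell from 0.53 to 0.34. In that fit 16 targets had an unadjusted p under 0.05, against 15.6% of all genes in both directions. The calls after adjustment were not stable to the loss of a library, for the targets or for all genes. No target was called without CTRL replicate 1, CTRL replicate 2 or ODC replicate 1, against 0.0156%, 0.0311% and 0.0234% of all genes. RRAD alone was called without CTRL replicate 3, against 0.0932%, and the share with all libraries was 0.189%. In the fits with no target called, RRAD had an adjusted p of 0.124, 0.0954 and 0.143 with log2 fold changes of 1.40, 1.56 and 1.51.

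At 2 h the same 32 targets were centred on no difference. The estimate was higher with ODC for 15 and lower for 17, with a median log2 fold change of -0.064. None had an unadjusted p under 0.05 by edgeR's quasi-likelihood test, by its likelihood ratio test or by DESeq2, against 1.47% of all 13332 genes that were higher and 0.87% that were lower, and the smallest unadjusted p was 0.0967, for CCNG1. None was called after adjustment, as was no gene of the whole table (0%), and none reached that p with a 2-fold change, which 0.0975% of all genes passed upward. XPC was the 1 target with all ODC libraries above all CTRL libraries (7.89% of all genes), at 200.2 and 215 CPM in CTRL and 222, 235 and 216 CPM in ODC. CCNG1 was the 1 target with all ODC libraries below all CTRL libraries (7.42% of all genes), at 225 and 242 CPM in CTRL and 214, 217 and 189.7 CPM in ODC. CDKN1A, at 102 and 94.9 CPM in CTRL and 116, 97.4 and 96.9 CPM in ODC, had a log2 fold change of 0.07 ± 0.11, and MDM2, at 180.0 and 201 CPM in CTRL and 181, 173 and 152 CPM in ODC, one of -0.18 ± 0.11. Both overlapped between the groups. Without CTRL replicate 1, which leaves a lone control, the log2 fold changes were 0.13 for CDKN1A, -0.25 for MDM2, 0.061 for XPC and -0.23 for CCNG1.

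The targets that differed most at 24 h were also mixed at 2 h. RRAD measured 16.2 and 15.8 CPM in CTRL and 15.4, 36.5 and 18.4 CPM in ODC at 2 h (log2 fold change 0.55 ± 0.33), with ODC replicate 2 far above the other 4 libraries. GDF15 measured 28.4 and 12.9 CPM in CTRL and 16.9, 35.2 and 16.9 CPM in ODC (log2 fold change 0.16 ± 0.40), also highest in ODC replicate 2. NINJ1 measured 7.24 and 5.89 CPM in CTRL and 8.39, 6.12 and 8.91 CPM in ODC (log2 fold change 0.25 ± 0.21), with overlapping groups. Without CTRL replicate 1, which leaves a lone control, the log2 fold changes were 0.56 for RRAD, 0.83 for GDF15 and 0.40 for NINJ1. The death receptors had lower estimates in all 4 tested members. FAS measured 69.5 and 53.3 CPM in CTRL and 51.4, 51.9 and 63.7 CPM in ODC, and TNFRSF10B 217 and 155 CPM in CTRL and 154, 181 and 199 CPM in ODC. TNFRSF10A measured 18.9 and 13.9 CPM in CTRL and 11.6, 11.7 and 17.9 CPM in ODC, and TNFRSF10D 29.2 and 11.4 CPM in CTRL and 10.4, 21.4 and 8.94 CPM in ODC. In all 4 CTRL replicate 1, the library with counts of fibroblast genes, was the highest of the 5. Without it the log2 fold changes of FAS, TNFRSF10B and TNFRSF10D turned from -0.14, -0.07 and -0.58 to 0.062, 0.20 and 0.26, and that of TNFRSF10A from -0.26 to -0.023. Over all 32 targets the median then was 0.047, with 20 higher and 12 lower. The sign of 11 of the 32 estimates turned when it was left out, with PLK3 going from -0.54 to 0.60.

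**Figure D3:**
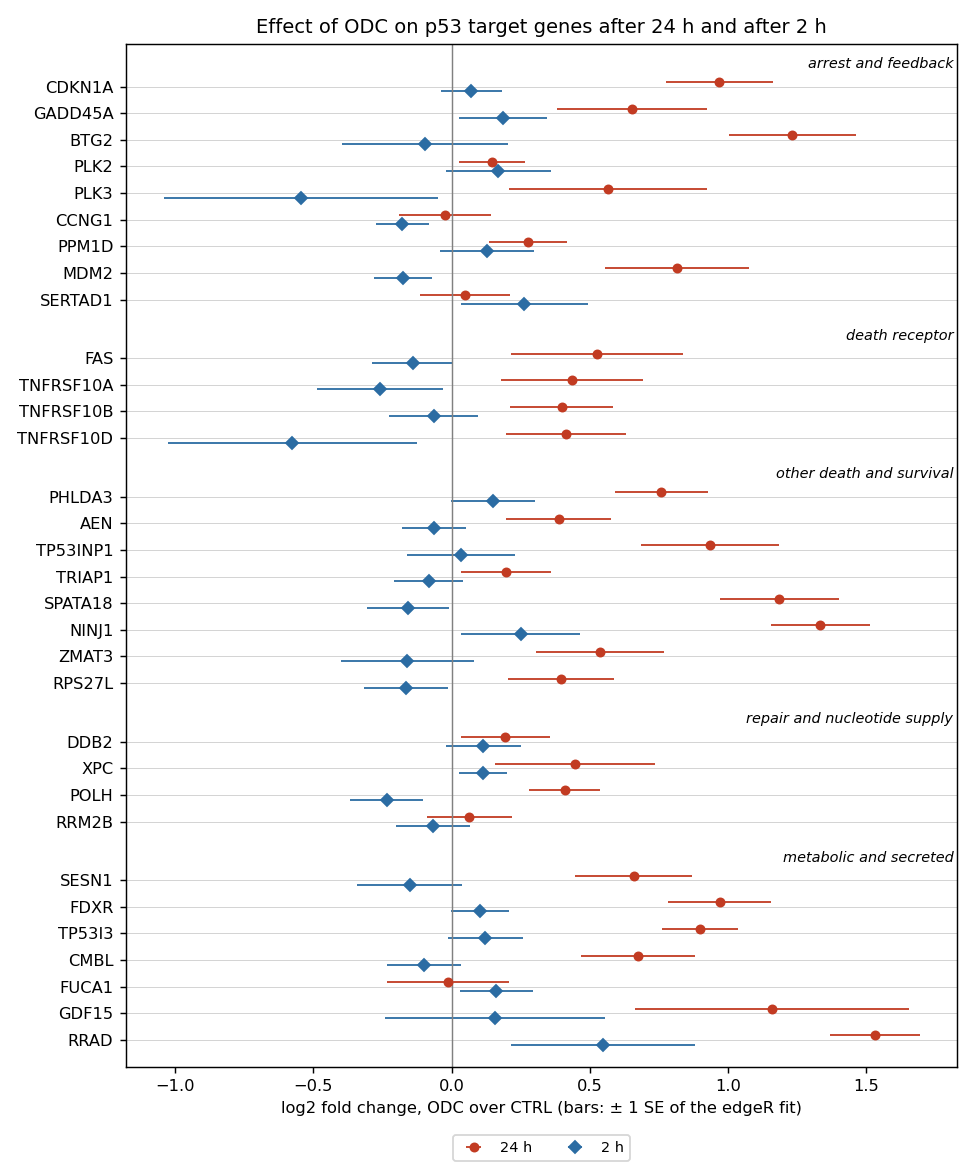
Log2 fold change of ODC over CTRL for the 32 tested p53 target genes, grouped by role, at 24 h (red circles) and at 2 h (blue diamonds), with bars of ± 1 SE derived from the F statistic of the edgeR fit. At 24 h 30 of the 32 points lie above 0 and at 2 h 15 do, and the widest bars belong to GDF15 at 24 h and to PLK3 and TNFRSF10D at 2 h.

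The difference between the effects was tested directly, as the log2 fold change at 24 h minus that at 2 h, in 1 fit of all 11 libraries. Each effect is taken within the table of its own time. The difference was positive for 29 of the 32 targets, and 13 had an unadjusted p under 0.05, all larger at 24 h, against 3.17% of 13333 genes. After adjustment none was called by edgeR's quasi-likelihood test, against 0.015% of all genes. Its likelihood ratio test and DESeq2 each called 1, SPATA18, against 0.278% and 0.285% of all genes. SPATA18 had the smallest p, with a difference of 1.33 ± 0.28 (adjusted p = 0.373), followed by NINJ1 with 1.07 ± 0.27 (adjusted p = 0.503) and TP53I3 with 0.76 ± 0.20 (adjusted p = 0.518). BTG2, at 1.31 ± 0.42, CDKN1A, at 0.88 ± 0.26, and MDM2, at 0.98 ± 0.34, were among the 13, and RRAD was too, at 0.97 ± 0.41 (unadjusted p = 0.0351). GDF15 was not, at 0.99 ± 0.75, and nor was any death receptor. PLK2, SERTAD1 and FUCA1 had differences below 0, from -0.23 to -0.04. With 1 library other than a 2 h CTRL library left out, the count of 13 became 10 to 19. It was 10 without CTRL replicate 1 or without ODC replicate 1 at 24 h, against 4.07% and 5.45% of all genes, both directions. Without ODC replicate 2 at 24 h it was 19, against 6.17%. The share in both directions with all libraries was 5.93%.

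Levels can be compared between targets only per length. Per kilobase of annotated exon (the union of all GENCODE exons of a gene), PLK2 was the most abundant target in all 4 groups, at 166 ± 6.71 CPM per kilobase (SD, n = 3) in CTRL at 24 h, followed by CCNG1 at 70.0 ± 5.22. Neither of these 2 abundant targets reached an unadjusted p of 0.05 at 24 h. CDKN1A stood at 31.5 ± 3.61 in CTRL and 61.6 ± 15.8 in ODC at 24 h and moved from rank 6 to rank 4 of the 33. RRAD moved from rank 22 (5.84 ± 0.946) to rank 14 (16.9 ± 1.88), and NINJ1 from rank 31 (1.80 ± 0.312) to rank 28 (4.55 ± 0.339). The 2 called targets thus stood in the lower part of the order in CTRL, and NINJ1 stayed below most of the other targets in ODC. FAS, whose annotated exons add up to 29313 bases, had rank 28 in CTRL.

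The genes that act on p53 had a median log2 fold change of -0.0069 at 24 h. MDM4, the partner of MDM2 that blocks p53 at its targets, differed by 0.11 ± 0.11 on the log2 scale (adjusted p = 0.754). Of the 27 tested genes in a list of p53 regulators, none was higher and 2 (7.41%) were lower at an unadjusted p under 0.05, a share near the 5.04% of all genes: CHEK1, a checkpoint kinase (log2 fold change -0.32 ± 0.09), and RCHY1, a ubiquitin ligase of p53 (-0.41 ± 0.12). At 2 h none of the 27 reached an unadjusted p of 0.05 with all libraries. Without CTRL replicate 1, which leaves a lone control, 11 estimates were above 0 and 16 below, with a median of -0.029.

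A second list of p53 targets, which shares no gene with the first, was also chosen with results of these data known, so its counts are no separate support. It had estimates above 0 for 26 of its 33 tested genes at 24 h. Of the 33, 19 were higher and 1 lower at an unadjusted p under 0.05, against 7.2% and 5.04% of all genes. The median log2 fold change was 0.44. The count of 19 became 12 without CTRL replicate 1, when 3.88% of all genes were higher. The count of 1 became 4 without ODC replicate 3, when 6.4% of all genes were lower. IGFBP3, a secreted binder of insulin-like growth factors, was called, with 114, 117 and 147 CPM in CTRL and 414, 731 and 438 CPM in ODC (log2 fold change 2.06 ± 0.23, adjusted p = 0.0251). DRAM1, a lysosomal regulator of autophagy (0.68 ± 0.10), CES2, a carboxylesterase (0.58 ± 0.11), BBC3, the apoptosis inducer PUMA (0.79 ± 0.16), and CYFIP2 (0.85 ± 0.18) followed by p. TNFAIP8 was the 1 gene that was lower (-0.52 ± 0.14), and is named because its value was seen. In this list the 3 ODC libraries had medians of 0.50, 0.21 and 0.39 relative to CTRL, and ODC replicate 2 was the lowest in 21 of 33. At 2 h the list had 0 genes higher and 1 lower at that threshold, against 1.47% and 0.87% of all genes. The lower gene was ACER2, a ceramidase (-0.72 ± 0.30). Without CTRL replicate 1, which leaves a lone control, 16 estimates of the list were above 0 and 17 below, with a median of -0.056. With all libraries these were 18 and 15, with a median of 0.012.

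**Figure D4:**
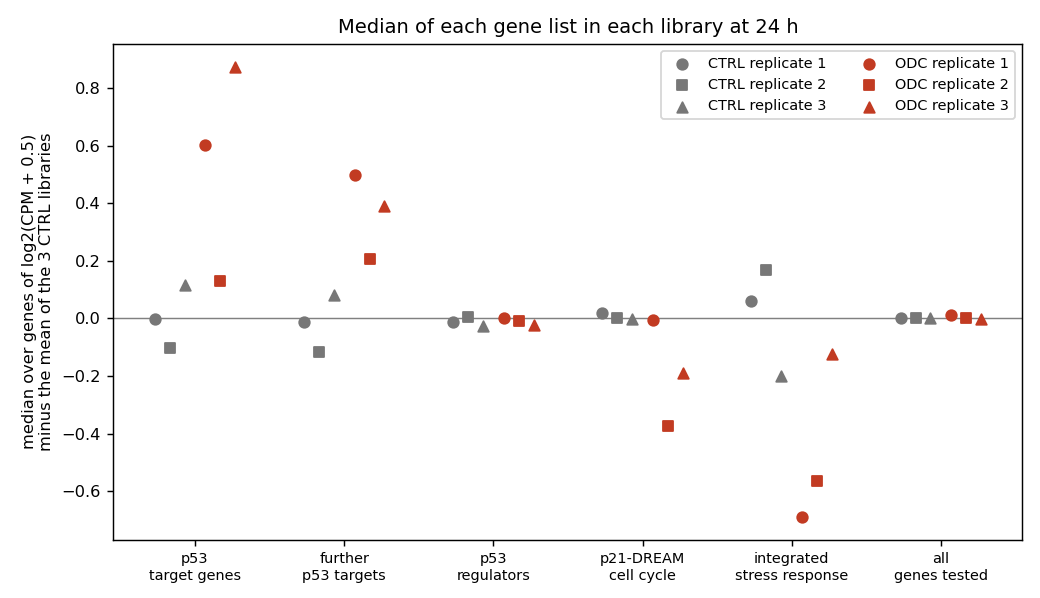
Median over the genes of each list of log2(CPM + 0.5) minus the mean of the 3 CTRL libraries, for each 24 h library (grey: CTRL, red: ODC, with circles, squares and triangles for replicates 1, 2 and 3). The 33 p53 targets (32 tested) range from 0.13 to 0.87 over the ODC libraries, while the p53 regulators and all genes stay near 0 in every library.

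p21 acts on the cell cycle by way of the DREAM complex, which represses genes of the G2 and M phases. The list used here has 20 genes, most of them of G2 and M, with E2F1, MCM2 and MCM5, which act at the entry into S phase and in DNA replication. All 20 had estimates below 0 at 24 h, with a median log2 fold change of -0.13. At an unadjusted p under 0.05, 2 (10%) were lower, against 5.04% of all genes. They were CDK1, the mitotic kinase (-0.32 ± 0.11, adjusted p = 0.295), and AURKB, the Aurora B kinase (-0.26 ± 0.09, adjusted p = 0.301). Relative to CTRL the 3 ODC libraries had medians of -0.01, -0.37 and -0.19, so that ODC replicate 2, with the lowest p53 targets, also had the lowest median here. It was the lowest ODC library in 15 of the 20 genes and the highest in 4, which were E2F1, MCM2, MCM5 and MYBL2. Without ODC replicate 2, 13 of the 20 estimates were below 0 and 1 was lower at an unadjusted p under 0.05, against 4.71% of all genes. Without ODC replicate 1 all 20 were below 0 and 6 were lower at such a p, against 3.71% of all genes. At 2 h 10 of the 20 were higher and 10 lower, and without CTRL replicate 1 these were 9 and 11.

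The integrated stress response is a program of translation control and amino acid supply led by ATF4, and its part in the target values was not tested. At 24 h 5 of its 12 listed genes were lower and none higher at an unadjusted p under 0.05, against 5.04% and 7.2% of all genes. The 5 were PSAT1 (-0.91 ± 0.16) and ASNS (-0.99 ± 0.25), enzymes of amino acid synthesis, ATF4, the transcription factor of this response (-0.70 ± 0.12), CHAC1, which degrades glutathione (-1.38 ± 0.29), and TRIB3, a pseudokinase (-0.58 ± 0.20). The ODC libraries were not alike. Relative to CTRL their medians over the 12 genes were -0.69, -0.56 and -0.12, and ODC replicate 3, in which GDF15 was highest, was the highest ODC library in 8 of the 12 and lay above every CTRL library in 5. SLC7A11, a cystine transporter, for example measured 75.4, 87.8 and 76.1 CPM in CTRL and 41.1, 30.3 and 197 CPM in ODC. Without ODC replicate 3, 11 of the 12 estimates were below 0 and 7 were lower at an unadjusted p under 0.05, against 6.4% of all genes. At 2 h all 12 had estimates above 0. An unadjusted p under 0.05 was reached by 1, CEBPB (0.34 ± 0.15), against 1.47% of all genes that were higher. CTRL replicate 1, the library with counts of fibroblast genes, was the lower CTRL library in all 12, with a median of -0.27 against 0.27 for CTRL replicate 2. Without it, with a lone control left, 5 estimates were above 0 and 7 below, with a median of -0.024. The log2 fold change of CEBPB was then 0.13, and that of SLC7A11 was -0.59.

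Markers of other cell types were at or near 0 at 24 h with a few exceptions. Of 6 fibroblast genes, COL1A1 and PDGFRB were present in every 24 h library and COL1A2, COL3A1, DCN and LUM had at most 2 counts. The 6 had a summed level of 66.6 to 142 CPM in CTRL and 115 to 169 CPM in ODC. The 5 endothelial genes summed to 0.0481 to 0.553 CPM in CTRL and 0.240 to 0.378 CPM in ODC, and the 5 leukocyte genes to 0.166 to 0.261 and 0.288 to 0.649 CPM. Of the 10 renal epithelial markers, which summed to 1855 to 2344 CPM in CTRL and 1575 to 2081 CPM in ODC, LHX1 (-1.46 ± 0.26), KRT18 (-0.71 ± 0.15) and KRT8 (-0.62 ± 0.17) were lower at an unadjusted p under 0.05, and their part in the target values was not tested. RNA was taken from whole cultures, so a change in the share of cells that express a target and a change in its RNA per cell cannot be told apart.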

How the data were processed

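RNA of Caki-1-SR clone 1 was sequenced in 11 libraries: 6 at 24 h and 5 at 2 h, deposited as separate tables whose sample names carry different dates. The authors prepared stranded mRNA libraries, aligned reads to hg38 and counted them per gene. The submitters' processing notes name STAR 2.7.0f, HTSeq 0.9.1 and edgeR 3.26.8. The annotation release and the strand setting of the counting are not given in the sources used here. The deposited values are raw counts of 26485 symbols per library.

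Counts were fitted with edgeR 4.0.16 in R 4.3.3 (TMM scaling, the filterByExpr filter at 10 counts per library and 15 in total, earlier quasi-likelihood method, two-sided), separately at 24 h (12689 genes) and 2 h (13332 genes), with Benjamini-Hochberg adjustment over all genes. A joint fit tested the difference of the effects. The SE of a log2 fold change was derived from its test, as the absolute log2 fold change divided by the square root of the F statistic. CPM are scaled by TMM factors (0.965 to 1.02). The 33 targets and all lists were chosen with earlier results of these data known. Values per library are given for targets with an unadjusted p under 0.05, for CDKN1A, MDM2, GDF15, the death receptors and targets at the floor of 3 counts. Those of PPM1D, XPC and RRM2B at 24 h and of XPC and CCNG1 at 2 h were added outside this rule. From the other lists at most 5 genes with the smallest p are named, with MDM4. One further item of the rule is not reported here. Gene positions are from GENCODE release 44. COP1 was found under its older symbol RFWD2. Alternatives were other filters, scalings and tests (DESeq2 1.42.0), a joint fit, and fits without each single library. For the lists and for the count of time differences those fits were chosen after seeing the data. The fits were tested on simulated counts. Figures were drawn with matplotlib.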

Additional observations from a re-analysis of the deposited data

How the results depend on the processing

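At 24 h the median log2 fold change of the targets stayed between 0.51 and 0.53 under every other filter, scaling and test, and between 0.34 and 0.77 with a library left out. The 2 calls after adjustment (0.189% of all genes, with the same share in brackets below) became 7 with every gene of at least 1 count (0.522%). They became 1 with at least 10 counts in every library (0.141%), upper quartile scaling (0.165%) or library size only (0.142%). The likelihood ratio test called 9 (3.16%), DESeq2 10 (2.98%) and the joint fit 6 (1.4%). With a library left out 0 to 6 were called, against 0.0156% to 0.545% of all genes. The 15 targets with an unadjusted p under 0.05 became 11 to 23 with a library left out. The share of all genes was 12.2% in the main fit, 6.98% in the fit with 11 targets and 10.1% in that with 23. The cause of these shifts was not tested. RRAD was called under 14 of 17 alternatives and NINJ1 under 9 of 17.

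At 2 h the count at an unadjusted p under 0.05 became 1 with every gene of at least 1 count, against 3.22% of all genes. It was also 1 without ODC replicate 1, 2 or 3, against 2.27%, 2.66% and 1.33% of all genes. With a library left out the median ranged from -0.077 to 0.047. Leaving out either CTRL replicate leaves a lone control, assumed to vary like the ODC libraries. For those fits no count at an unadjusted p under 0.05 is given, and only effect sizes and their signs are. Without CTRL replicate 2 the median was -0.042, with 15 estimates higher and 17 lower. At 2 h the log2 fold changes of 20 of the 32 targets turned sign with some library left out, 11 of them without CTRL replicate 1. Those among the 20 with values by library at 24 h ranged from -0.020 to 0.13 for CDKN1A, -0.30 to 0.18 for BTG2, -0.052 to 0.40 for PHLDA3, -0.17 to 0.29 for TP53INP1, -0.34 to 0.087 for SESN1, -0.20 to 0.013 for CMBL, -0.29 to 0.83 for GDF15, -0.30 to 0.062 for FAS, -0.27 to 0.20 for TNFRSF10B and -1.09 to 0.26 for TNFRSF10D. PPM1D and RRM2B, also among them, ranged from -0.10 to 0.42 and from -0.15 to 0.032 with a library left out. For the difference between the times, the likelihood ratio test and DESeq2 each called 1 target instead of 0.

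No paired analysis was possible because the labels give no replicate number shared by the groups, and the numbers used here only name libraries. Depth does not limit most targets, but TNFRSF10C was near the floor in all groups.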
